A study of Homo sapiens with 9 samples.

Results

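Replication licensing and fork proteins were examined as 48 genes named by function, from the origin recognition complex to chromatin assembly behind the fork. Their rows were taken by gene symbol from 2 count tables that together list 16204 genes, and all 48 were found in both tables. The genes come from xenografts of PC3, a human prostate cancer cell line that lacks most prostate lineage expression, grown under the skin of male NSG mice, a strain without mature lymphocytes or natural killer cells. RNA-Seq measured 9 tumors taken at the end of the experiment, 3 in each of 3 groups, and asked how residual tumors after antibody-drug conjugates differ from vehicle-treated tumors.

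The series record gives PC3 cells injected with Matrigel into mice aged 11 weeks, a start of treatment at 90 mm3, and 5 weekly retro-orbital cycles of PBS or of 5 mg/kg of a conjugate. The study's methods state other values for some of these for the xenografts with both conjugates. T-DXd (trastuzumab deruxtecan) binds HER2 and P-DXd (patritumab deruxtecan) binds HER3, and both carry the same topoisomerase I inhibitor. For each of the 6 treated libraries the sample title names one conjugate and the treatment field names the other, so the groups are called PDXd-titled and TDXd-titled, and all 6 were also compared with PBS together. Every group shares the same cell line, mouse strain and vehicle route, and all tumors come from 1 cell line. The sources do not say whether reads of the mouse host were removed, nor that each library is a separate animal beyond the code in its title, so p-values measure the spread between these libraries. PBS libraries serve both comparisons with vehicle, which are therefore not independent of each other.

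DNA replication is licensed before S phase, when the origin recognition complex (ORC) marks origins and CDC6 and CDT1 load the MCM2-7 helicase onto DNA in an inactive form, a step that geminin (GMNN) blocks outside its window. The DBF4-dependent kinase CDC7 and further factors then turn the loaded helicase into the active CMG helicase by adding CDC45 and the GINS complex. Polymerases alpha, delta and epsilon copy the opened strands with the sliding clamp PCNA and its loader RFC, while RPA covers single-stranded DNA. Many of these genes are transcribed under E2F factors as cells enter S phase, and their mRNA levels are used as signs of proliferation.

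Promoters of 5 members are shown because E2F-type sites are the best-known shared sequence of this gene class. These 5 also include members called lower and a member not called, as described further on. MCM6, CDC6, ORC1 and ORC3 were chosen for display after their values were seen. The windows come from RefSeq on GRCh38.p14 and run from 250 bases before to 50 bases after the annotated start, in the direction of transcription. Capitals mark each match to TTTGGCGC, TTTCCCGC, TTTCGCGC or TTTGCCGC on either strand. They are MCM6 at chr2:135876394-135876693 on the minus strand, CDC6 at chr17:40287629-40287928 on the plus strand, POLE2 at chr14:49688165-49688464 on the minus strand, ORC3 at chr6:87589885-87590184 on the plus strand and ORC1 at chr1:52404374-52404673 on the minus strand.
MCM6: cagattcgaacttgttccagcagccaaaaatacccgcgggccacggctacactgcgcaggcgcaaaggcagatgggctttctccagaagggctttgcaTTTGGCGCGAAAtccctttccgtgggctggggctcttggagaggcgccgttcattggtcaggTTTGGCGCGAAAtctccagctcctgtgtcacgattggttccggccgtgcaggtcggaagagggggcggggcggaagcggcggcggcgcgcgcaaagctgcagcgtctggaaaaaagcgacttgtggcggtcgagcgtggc
CDC6: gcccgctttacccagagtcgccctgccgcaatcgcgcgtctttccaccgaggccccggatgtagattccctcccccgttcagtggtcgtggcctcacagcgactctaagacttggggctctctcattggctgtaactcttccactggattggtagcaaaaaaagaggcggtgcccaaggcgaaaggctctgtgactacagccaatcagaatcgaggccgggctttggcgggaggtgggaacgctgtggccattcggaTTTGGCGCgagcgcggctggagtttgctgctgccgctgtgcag
POLE2: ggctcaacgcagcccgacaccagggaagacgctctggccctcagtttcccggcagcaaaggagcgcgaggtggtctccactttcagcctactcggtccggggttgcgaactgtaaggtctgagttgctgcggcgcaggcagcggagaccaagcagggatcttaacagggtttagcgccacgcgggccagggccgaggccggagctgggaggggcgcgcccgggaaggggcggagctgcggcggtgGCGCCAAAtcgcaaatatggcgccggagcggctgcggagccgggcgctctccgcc
ORC3: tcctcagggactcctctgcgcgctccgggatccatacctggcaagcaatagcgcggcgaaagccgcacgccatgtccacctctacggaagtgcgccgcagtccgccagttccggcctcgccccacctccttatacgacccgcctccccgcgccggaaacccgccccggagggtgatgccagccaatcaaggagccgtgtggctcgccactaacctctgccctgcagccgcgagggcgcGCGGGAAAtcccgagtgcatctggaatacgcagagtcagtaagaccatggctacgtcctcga
ORC1: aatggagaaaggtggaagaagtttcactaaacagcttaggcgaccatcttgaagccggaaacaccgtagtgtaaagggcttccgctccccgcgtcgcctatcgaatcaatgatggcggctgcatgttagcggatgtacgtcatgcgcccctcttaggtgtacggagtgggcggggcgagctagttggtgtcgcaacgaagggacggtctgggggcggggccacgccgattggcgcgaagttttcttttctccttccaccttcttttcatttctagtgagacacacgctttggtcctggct

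The MCM6 window held the same 12-base run TTTGGCGCGAAA in 2 places, starting at positions 99 and 161 counted from the first base of the window, and each run is a pair of overlapping matches on opposite strands. CDC6 had 1 match at position 258, just downstream of the annotated start, and POLE2 had 1 at position 246. ORC3 also had 1 match, at position 239, although its level was not called changed. ORC1 had no match to the listed sequences in its window. It does hold attggcgc, which differs from TTTGGCGC in the first base only, and such near matches were not counted for any gene. A match describes letters only and is not a measured binding site.

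Across the group, 41 of the 48 members had a promoter window, and 20 of the 41 (48.8%) held at least 1 E2F-type match. Of the 11776 genes in the count tables that had a window, 5.88% held one, as did 3.31% of all 35116 windows in the RefSeq table. MCM4, MCM5, GINS4, POLD3, RPA2, RPA3 and DNA2 had no window. Of the 36 members with a window that were called lower in treated tumors, 19 held a match, against 1 (ORC3) of the 5 that were not called. This contrast rests on only 5 genes that were not called, and it was not tested. CCAAT, the box read by NF-Y, was in 23 of the 41 windows (56.1%) and in 42.7% of those of all listed genes, counting both strands.

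Treated tumors held less mRNA of most replication genes. Calls rest on edgeR's quasi-likelihood test with Benjamini-Hochberg adjustment over all genes tested, and need both an adjusted p of 0.05 or less and a change of 1.5-fold or more. Against PBS, 41 of 48 members were called lower in all 6 treated libraries together, where 17.1% of all genes tested were called lower. With the PDXd-titled libraries alone it was 40 of 48 against 13.8% of all genes, and with the TDXd-titled libraries alone 41 of 48 against 15.5%. In none of the 3 comparisons was a member called higher, by edgeR or by DESeq2, where edgeR called 15.2%, 11.2% and 13.1% of all genes higher. At an unadjusted edgeR p under 0.05 there were 44, 43 and 43 members in either direction, against 61.1%, 46.9% and 52.1% of all genes. The members' median log2 fold change was -1.28 for all treated tumors, -1.21 for PDXd-titled and -1.33 for TDXd-titled tumors, while the median over all genes was -0.014, -0.0053 and -0.019.

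Levels are CPM, a gene's count per 1000000 counts of its library, on library sizes adjusted by TMM, a scaling that centres most genes between libraries. For 42 of 48 members each of the 6 treated libraries lay below each of the 3 PBS libraries, as it did for 25.5% of all genes. ORC4 was the only member with all treated libraries above all PBS libraries, a pattern that 25% of all genes showed. In bulk tumor RNA, fewer cells that express a gene and less RNA per cell cannot be told apart. The map of 48 genes by 9 libraries shows the fall in nearly every row and its absence in a few.

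**Figure D1:**
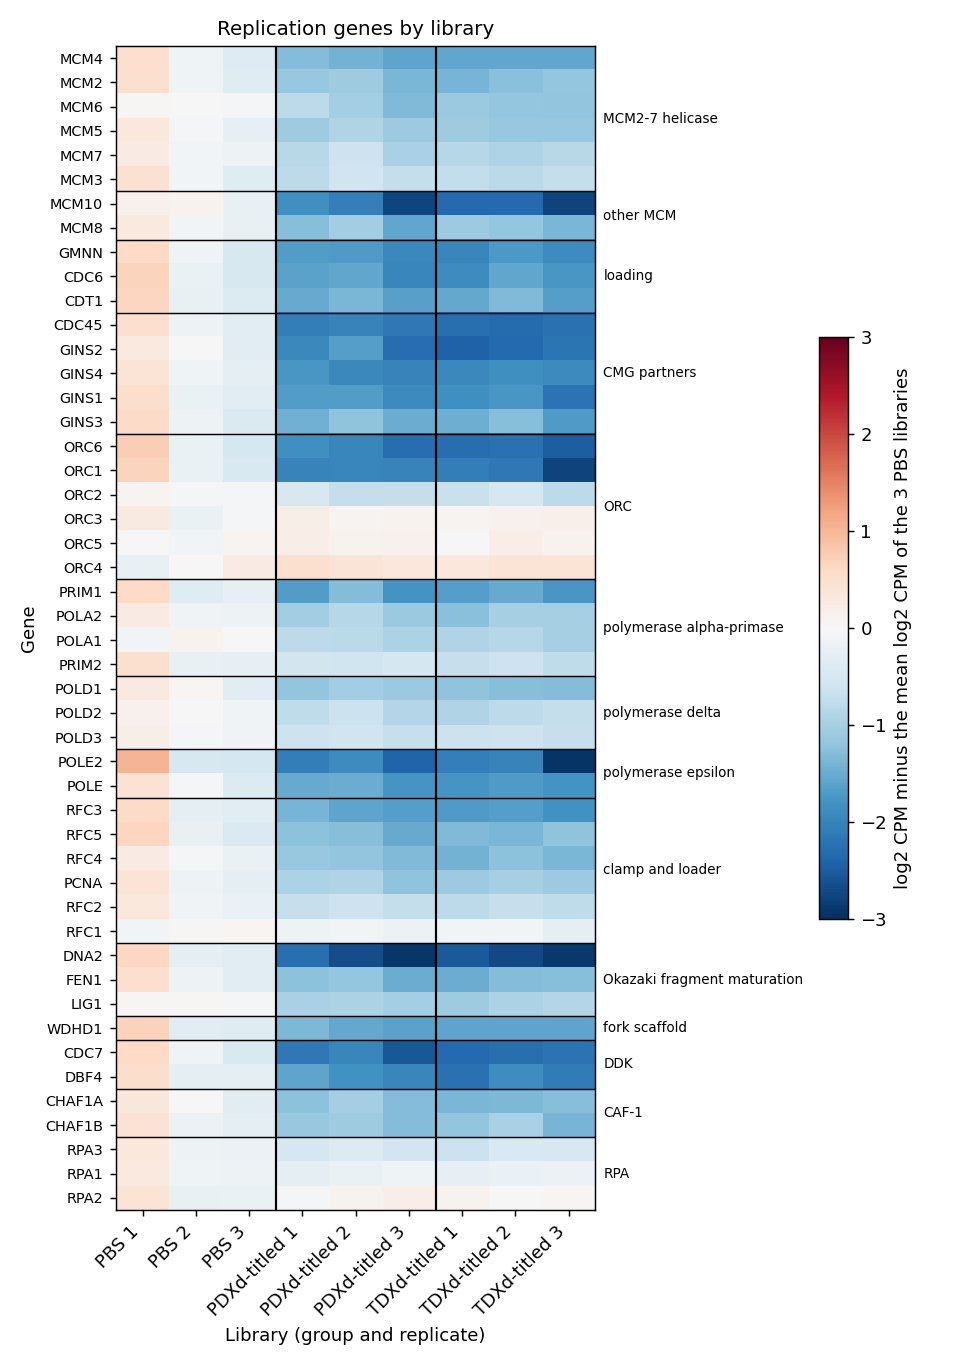
Heat map of the 48 replication genes (rows, grouped by role) in the 9 libraries (columns); color is log2 CPM minus the mean log2 CPM of the 3 PBS libraries. Blue fills the treated columns in most rows, while ORC3, ORC4, ORC5, RFC1, RPA1 and RPA2 stay near white or pale red, and PBS 1 is redder than PBS 2 and PBS 3 in most rows.

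PBS replicate 1 stood apart from the other PBS libraries for this gene group. It was the highest of the 3 PBS libraries for 44 of 48 members, against 45.8% of all genes tested. The median deviation of the members from their PBS mean was 0.42 in PBS 1, -0.13 in PBS 2 and -0.27 in PBS 3 on the log2 scale. In the treated libraries the same median was -1.21, -1.06 and -1.35 for PDXd-titled and -1.34, -1.27 and -1.29 for TDXd-titled tumors, so each lay far under the lowest PBS library. Without PBS 1, 37 members were called lower in all treated tumors, 36 in PDXd-titled and 38 in TDXd-titled tumors. The shares of all genes called without PBS 1 are not given here, and those above hold for all libraries only. The calls lost were MCM3, PRIM2, POLD3 and RFC2 in all treated tumors, MCM3, ORC2, POLD3 and RFC2 in PDXd-titled, and MCM3, PRIM2 and POLD3 in TDXd-titled tumors. In each case the fold change slipped under 1.5 while the adjusted p stayed under the threshold, in the same edgeR test.

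Marker genes of other cell types and of proliferation moved between the same groups. All 5 proliferation markers (MKI67, TOP2A, CCNB1, CDK1 and CCNA2) were called lower. Their sum was 677 to 1142 CPM in PBS, 128 to 168 CPM in PDXd-titled and 98.1 to 122 CPM in TDXd-titled libraries. The 5 epithelial markers summed to 1668 to 2345 CPM in PBS and 3127 to 3664 CPM in treated libraries, with KRT8 and KRT18 called higher and none lower. Of the prostate markers, TMPRSS2 was at 0.159 to 4.02 CPM in PBS and 4.40 to 7.49 CPM in treated libraries and was not called, and KLK3 was not in the tables. All 8 skeletal muscle markers were called higher, and their sum was 9.12 to 47.4 CPM in PBS, 90.4 to 225 CPM in 5 treated libraries and 3082 CPM in PDXd-titled 2. The 7 fibroblast markers summed to 1055 to 2054 CPM in PBS and 1217 to 2212 CPM in treated libraries, with 3 called higher. Macrophage markers, of which 4 of 6 were in the tables, summed to 3.93 to 6.03 CPM in PBS and 11.3 to 20.7 CPM in treated libraries, with CSF1R and ITGAM called higher, CD68 near 0 throughout and CD163 and MRC1 not in the tables. Endothelial markers, 3 of 4 without PECAM1, summed to 2.51 to 4.17 CPM in PBS and 3.04 to 4.41 CPM in treated libraries, with none called. Counts per library ran from 54481702 to 125538606, with every PBS library deeper than every treated library. The sources do not say whether mouse host reads were counted in these human gene rows, muscle and replication genes included. The part of these cells, states, depths and any host reads in the replication gene results was not tested. Without PDXd-titled 2, 38 members were called lower in PDXd-titled tumors, and the share of all genes called in that fit is not given here.

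All 6 subunits of the MCM2-7 helicase, the ring that unwinds DNA at the fork, fell in both titled groups. MCM4 fell most and MCM3 least. The MCM3 call was lost in PDXd-titled tumors without PBS 1, PBS 2 or any 1 PDXd-titled library (log2 fold change -0.80 to -0.47) and in TDXd-titled tumors without PBS 1 or any 1 TDXd-titled library (-0.81 to -0.53). It was also lost in TDXd-titled tumors with the first digit of the title codes as a block (-0.67, edgeR adjusted p = 0.051). MCM4 was at 422, 275 and 229 CPM in the PBS libraries, 122, 112 and 99.9 in the PDXd-titled libraries and 102, 102 and 101 in the TDXd-titled libraries. MCM3 was at 233, 160.3 and 132 CPM in the PBS libraries, 98.9, 112 and 103 in the PDXd-titled libraries and 101, 97.4 and 104 in the TDXd-titled libraries. Every treated library lay below every PBS library for both genes, and the treated libraries were much closer to each other than the PBS libraries were. In all treated tumors MCM4 had a log2 fold change of -1.54 ± 0.15 (SE; edgeR adjusted p = 2.4e-05) and MCM3 one of -0.77 ± 0.14 (adjusted p = 9.2e-04). MCM2, MCM6, MCM5 and MCM7 lay between them, at -1.27, -1.09, -1.08 and -0.85. MCM6, whose promoter holds the doubled run shown above, had the tightest PBS values of the ring, 81.7 ± 2.23 CPM against 40.2 ± 7.51 in PDXd-titled and 36.6 ± 1.02 CPM in TDXd-titled tumors (SD, n = 3 each).

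The ring holds its 6 subunits in equal number, but their mRNA levels by transcript length were far from equal. Divided by the length of the GENCODE v44 canonical transcript, MCM7 was the highest of the 6 in each of the 9 libraries, at 134 to 176 CPM per kb in PBS and 76.1 to 97.1 in treated tumors. MCM6 was the lowest in 8 libraries and MCM5 in PDXd-titled 1, where they stood at 12.7 and 12.6 CPM per kb. The highest subunit was 6.36 to 7.89 times the lowest in PBS libraries and 6.68 to 9.004 times in treated libraries, which overlap. MCM7 overlaps another listed gene by the tables' coordinates, and the sources do not say whether reads were assigned by strand. Levels per kb rest on the canonical transcript alone, and which transcripts these tumors express was not measured. The gene models used for counting may also differ from those of GENCODE v44.

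MCM10, which helps to activate the helicase, fell more than any subunit of the ring, and MCM8, a relative that acts in homologous recombination, fell by about as much as MCM2. MCM10 was at 19.8, 19.5 and 15.7 CPM in the PBS libraries, 5.10, 4.37 and 2.71 in the PDXd-titled libraries and 3.65, 3.62 and 2.65 in the TDXd-titled libraries. MCM8 was at 58.99, 45.4 and 41.3 CPM in the PBS libraries, 19.96, 23.5 and 16.3 in the PDXd-titled libraries and 22.7, 21.5 and 18.7 in the TDXd-titled libraries. Both genes were lower in every treated library than in any PBS library. Log2 fold changes in all treated tumors were -2.31 ± 0.20 for MCM10 (edgeR adjusted p = 9.5e-06) and -1.25 ± 0.13 for MCM8 (adjusted p = 3.5e-05). Within a library, the log2 ratio of MCM10 to MCM2 was -2.66 ± 0.32 in PBS (SD, n = 3) and -3.77 ± 0.33 in treated tumors (SD, n = 6; exact permutation p = 0.024, 0.036 after adjustment over 18 ratios).

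CDC6 and CDT1, which load the helicase, and GMNN, which inhibits CDT1, all fell, by 2.98-fold or more in all treated tumors. GMNN had the largest fall and CDT1 the smallest. GMNN was at 68.6, 41.7 and 32.6 CPM in the PBS libraries, 14.2, 13.9 and 11.8 in the PDXd-titled libraries and 11.8, 13.7 and 12.2 in the TDXd-titled libraries. CDT1 was at 68.9, 37.98 and 33.2 CPM in the PBS libraries, 15.6, 17.1 and 14.2 in the PDXd-titled libraries and 15.2, 17.6 and 14.2 in the TDXd-titled libraries. CDC6, with 1 E2F-type match at its start, was at 88.6, 48.6 and 39.5 CPM in the PBS libraries, 18.3, 18.7 and 14.2 in the PDXd-titled libraries and 15.001, 18.8 and 16.6 in the TDXd-titled libraries. All 3 genes showed the same order, with PBS 1 highest, the other PBS libraries clearly lower and all treated libraries lower still. The log2 fold changes were -1.88 ± 0.18 for GMNN, -1.80 ± 0.21 for CDC6 and -1.58 ± 0.19 for CDT1 (edgeR adjusted p = 2.1e-05, 5.6e-05 and 7.4e-05). CDT1 and its inhibitor did not fall by the same amount: their log2 ratio was -0.03 ± 0.09 in PBS (SD, n = 3) and 0.27 ± 0.09 in treated tumors (SD, n = 6; exact permutation p = 0.024, adjusted p = 0.036).

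The partners that complete the active helicase fell more than the ring itself in fold terms, with a median log2 fold change of -1.92 for CDC45 and GINS1 to GINS4 and of -1.08 for MCM2 to MCM7 in all treated tumors, a difference that was not tested. CDC45, the cofactor that joins the ring to GINS, had the largest fall of the 5 in all treated tumors and GINS3 the smallest. GINS2 had the larger fall in TDXd-titled tumors, at -2.33 against -2.32 for CDC45, and in all treated tumors without PBS 1, at -1.96 against -1.91. CDC45 was at 34.99, 21.98 and 19.4 CPM in the PBS libraries, 5.81, 6.11 and 5.60 in the PDXd-titled libraries and 5.11, 4.98 and 5.22 in the TDXd-titled libraries. GINS3 was at 26.1, 15.8 and 12.95 CPM in the PBS libraries, 6.48, 7.52 and 6.25 in the PDXd-titled libraries and 6.28, 7.17 and 5.36 in the TDXd-titled libraries. For both genes the PBS libraries all lay above the treated ones. Log2 fold changes were -2.22 ± 0.16 for CDC45 (edgeR adjusted p = 4.6e-06) and -1.49 ± 0.19 for GINS3 (adjusted p = 1.1e-04), and GINS2, GINS4 and GINS1 lay between at -2.14, -1.92 and -1.89. GINS proteins form a complex with 1 copy of each, and the log2 ratio of GINS3 to GINS2 moved from -0.88 ± 0.24 in PBS (SD, n = 3) to -0.17 ± 0.26 in treated tumors (SD, n = 6; exact permutation p = 0.024, adjusted p = 0.036).

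The kinase that fires licensed origins fell with them. CDC7, its catalytic subunit, was at 51.9, 31.3 and 24.9 CPM in the PBS libraries, 7.74, 8.81 and 5.89 in the PDXd-titled libraries and 6.85, 7.13 and 7.39 in the TDXd-titled libraries. DBF4, its activating subunit, was at 68.2, 39.1 and 39.01 CPM in the PBS libraries, 15.8, 13.3 and 12.02 in the PDXd-titled libraries and 9.90, 13.02 and 10.9 in the TDXd-titled libraries. No treated library reached the PBS range for either subunit. CDC7 had a log2 fold change of -2.30 ± 0.20 in all treated tumors (edgeR adjusted p = 9.6e-06) and DBF4 one of -1.96 ± 0.19 (adjusted p = 1.8e-05). The log2 ratio of DBF4 to CDC7 overlapped between treated and PBS libraries, at 0.77 ± 0.23 (SD, n = 6) and 0.45 ± 0.17 (SD, n = 3; exact permutation p = 0.095, adjusted p = 0.12).

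The origin recognition complex split. ORC1, ORC6 and ORC2 were called lower in both titled groups and ORC3, ORC4 and ORC5 were not called in any comparison. ORC6, the smallest subunit, had the largest fall with all libraries, ORC1 without PBS 1, and ORC6 was at 50.6, 26.1 and 20.8 CPM in the PBS libraries, 8.41, 7.84 and 6.18 in the PDXd-titled libraries and 6.19, 6.404 and 5.42 in the TDXd-titled libraries. ORC4, one of the ATPase-fold subunits, was at 33.1, 38.6 and 46.01 CPM in the PBS libraries, 54.2, 50.6 and 48.5 in the PDXd-titled libraries and 48.8, 51.6 and 51.6 in the TDXd-titled libraries. For ORC6 every treated library was far below every PBS library, and for ORC4 every treated library was slightly above every PBS library. ORC6 had a log2 fold change of -2.27 ± 0.24 in all treated tumors (edgeR adjusted p = 3.4e-05). ORC4 had one of 0.38 ± 0.10 with an adjusted p of 0.0067, under the fold change minimum, and adjusted p of 0.062 in PDXd-titled and 0.054 in TDXd-titled tumors. By the coordinates in the tables, whose build is not certain, ORC4 overlaps 2 other listed genes, and in all 13 of the 48 members overlap another.

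The other 4 subunits were chosen for description after their values were seen. ORC1, the subunit that recruits CDC6 and is degraded in many cells after origins fire, was at 22.1, 12.2 and 10.2 CPM in the PBS libraries, 3.50, 3.62 and 3.51 in the PDXd-titled libraries and 3.32, 3.16 and 2.03 in the TDXd-titled libraries. ORC2, a core subunit, was at 45.5, 41.5 and 41.98 CPM in the PBS libraries, 30.8, 26.04 and 26.03 in the PDXd-titled libraries and 26.8, 29.6 and 25.1 in the TDXd-titled libraries. The ORC2 call in PDXd-titled tumors was lost without PBS 1, PDXd-titled 2 or PDXd-titled 3, at -0.58 each, just under the fold change minimum. ORC1 fell to a small part of its PBS level and ORC2 fell much less, and for both genes every treated library lay below every PBS library. ORC3, another core subunit, was at 42.9, 30.9 and 34.5 CPM in the PBS libraries, 40.5, 37.8 and 38.5 in the PDXd-titled libraries and 37.7, 39.3 and 39.8 in the TDXd-titled libraries. ORC5, the last core subunit, was at 32.2, 30.4 and 33.8 CPM in the PBS libraries, 36.9, 34.7 and 35.1 in the PDXd-titled libraries and 32.2, 36.98 and 34.6 in the TDXd-titled libraries. For both ORC3 and ORC5 the treated range lay within or across the PBS range. Log2 fold changes in all treated tumors were -2.22 ± 0.24 for ORC1 and -0.65 ± 0.08 for ORC2 (edgeR adjusted p = 4.0e-05 and 1.0e-04), 0.11 ± 0.09 for ORC3 and 0.13 ± 0.07 for ORC5 (adjusted p = 0.35 and 0.15). The 95% intervals for the latter were -0.10 to 0.32 and -0.03 to 0.29.

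Per length of the canonical transcript alone, the order of the ORC subunits differed between the groups. In PBS, ORC6 was the highest at 20.1 CPM per kb, before ORC5 at 16.7, ORC3 at 14.5, ORC2 at 10.02, ORC4 at 5.99 and ORC1 at 4.75. In treated tumors ORC5 led at 18.2 CPM per kb and ORC3 followed at 15.6, then ORC4 at 7.77, ORC2 at 6.39, ORC6 at 4.17 and ORC1 at 1.02. That order held in each of the 6 treated libraries, whereas the 3 PBS libraries each had an order of their own. ORC6 led clearly in PBS 1 (31.4 CPM per kb, with ORC3 next at 17.2), stood level with ORC5 in PBS 2 (16.2 and 15.8) and came after ORC5 and ORC3 in PBS 3 (12.9 against 17.6 and 13.8). Ratios within a library, which do not depend on scaling between libraries, changed the same way: the log2 ratio of ORC6 to ORC2 went from -0.51 ± 0.60 to -2.03 ± 0.19, and that of ORC5 to ORC2 from -0.42 ± 0.10 to 0.36 ± 0.09 (SD, n = 3 PBS and n = 6 treated; exact permutation p = 0.024 and adjusted p = 0.036 for each).

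**Figure D2:**
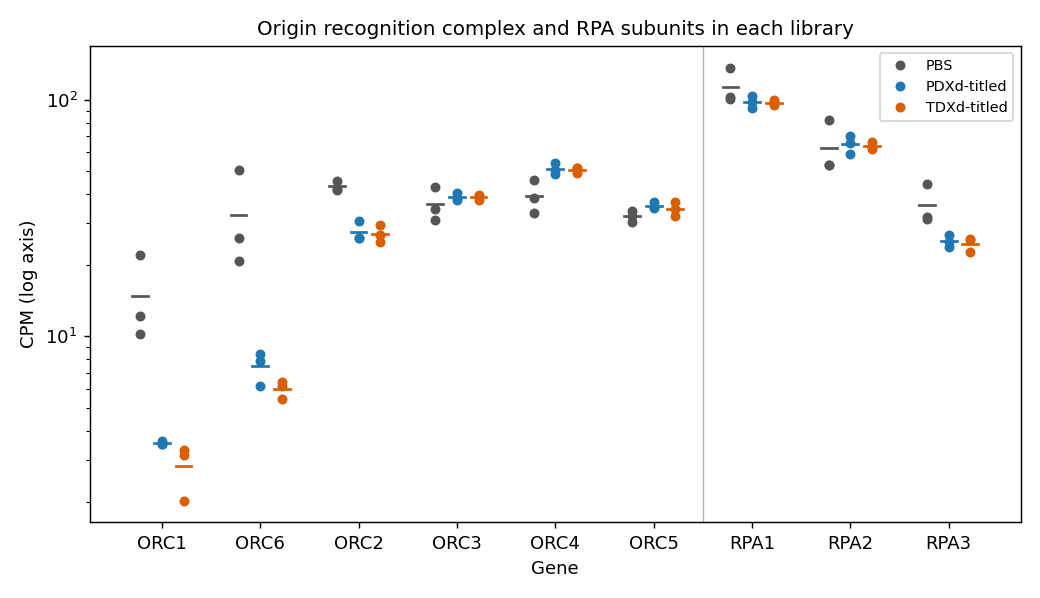
Levels in CPM (log axis) of the 6 ORC subunits and the 3 RPA subunits in each library; points are libraries, colored by group, and short bars are group means (n = 3). ORC1 and ORC6 drop well below PBS in all 6 treated libraries, ORC2 drops less, ORC4 lies slightly above PBS, RPA3 slightly below, and ORC3, ORC5, RPA1 and RPA2 overlap with it.

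RPA, the complex that covers single-stranded DNA during replication and repair alike, had no member called in any of the 3 comparisons with PBS by edgeR or DESeq2, with 2 members at an unadjusted p under 0.05 in all treated tumors and 1 in each titled group by edgeR. RPA3 gained a call when 1 library was left out, at -0.60 without PBS 2 and -0.61 without PBS 3 in all treated tumors (edgeR adjusted p = 0.0035 and 0.0017), at -0.61 and -0.63 without the same libraries in TDXd-titled tumors (0.041 and 0.023) and at -0.59 without PBS 3 in PDXd-titled tumors (0.039). RPA3, the smallest subunit, was at 44.2, 32.04 and 31.3 CPM in the PBS libraries, 25.1, 26.8 and 23.8 in the PDXd-titled libraries and 22.7, 25.8 and 25.5 in the TDXd-titled libraries. RPA2, the subunit phosphorylated under replication stress, was at 82.3, 53.01 and 53.1 CPM in the PBS libraries, 58.8, 65.7 and 70.1 in the PDXd-titled libraries and 66.5, 62.1 and 62.9 in the TDXd-titled libraries. RPA1, the main DNA-binding subunit and chosen for description after its values were seen, was at 137, 103 and 100.5 CPM in the PBS libraries, 92.5, 98.1 and 103 in the PDXd-titled libraries and 94.9, 97.7 and 99.2 in the TDXd-titled libraries. Treated libraries lay under all PBS libraries for RPA3, and they overlapped with PBS libraries for RPA1 and RPA2. RPA3 had a log2 fold change of -0.52 ± 0.11 in all treated tumors, under the fold change minimum (edgeR adjusted p = 0.0025), and RPA1 and RPA2 had -0.21 ± 0.10 and 0.04 ± 0.13 (adjusted p = 0.078 and 0.83). The 95% intervals were -0.42 to -0.0033 for RPA1 and -0.26 to 0.33 for RPA2. The sign for RPA2 turned when PBS 2 or PBS 3 was left out, to -0.073 and -0.071 in all treated tumors, and without PBS 1 it was 0.29 with an adjusted p of 0.0041, under the fold change minimum. Log2 ratios within a library were lower in treated than in PBS tumors for RPA3 to RPA2, at -1.37 against -0.79, and for RPA1 to RPA2, at 0.60 against 0.87 (exact permutation p = 0.024 and adjusted p = 0.036 for each, n = 6 and 3).

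All 9 polymerase members were called lower in all treated tumors, to unequal degrees. In polymerase alpha-primase, which starts each new strand, PRIM1, the catalytic primase, had the largest fall and was at 35.2, 18.3 and 19.8 CPM in the PBS libraries, 7.34, 9.47 and 6.72 in the PDXd-titled libraries and 7.42, 8.17 and 7.01 in the TDXd-titled libraries. PRIM2, the other primase subunit, had the smallest and was at 41.5, 25.3 and 24.9 CPM in the PBS libraries, 20.1, 19.5 and 20.6 in the PDXd-titled libraries and 18.3, 19.5 and 17.6 in the TDXd-titled libraries. Both were lower in every treated library than in any PBS library, although the gap was narrow for PRIM2. PRIM1 had a log2 fold change of -1.67 ± 0.19 (edgeR adjusted p = 5.5e-05) and PRIM2 one of -0.66 ± 0.15 (adjusted p = 0.0033) in all treated tumors. PRIM2 was not called in PDXd-titled tumors, with a log2 fold change of -0.59 and an adjusted p of 0.062, and was called in TDXd-titled tumors at -0.73 (0.029), a difference between titled groups that was itself 0.12 with a 95% interval of -0.06 to 0.30. The call in PDXd-titled tumors was gained with DESeq2, total counts alone, all 9 libraries in 1 fit or without PBS 3 (adjusted p 0.022 to 0.047), and that in TDXd-titled tumors was lost without PBS 1, without any 1 TDXd-titled library, or with the title code digit as a block (-0.64, adjusted p = 0.081 in edgeR). The polymerase subunits proper, POLA1 and POLA2, fell by 1.84-fold and 2.06-fold, and the PRIM1 to PRIM2 log2 ratio was -0.34 in PBS and -1.33 in treated tumors (exact permutation p = 0.024, adjusted p = 0.036, n = 3 and 6).

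Both members from polymerase epsilon, the leading-strand polymerase, fell. Of its other subunits, POLE4 had a log2 fold change of -0.72 and POLE3 one of -0.18 in all treated tumors, and POLE3 was not called. POLE2, the accessory subunit whose promoter is shown above, was at 21.2, 7.47 and 7.22 CPM in the PBS libraries, 2.49, 2.84 and 1.96 in the PDXd-titled libraries and 2.52, 2.62 and 1.37 in the TDXd-titled libraries. POLE, the catalytic subunit, was at 100.2, 71.9 and 55.7 CPM in the PBS libraries, 25.8, 26.1 and 21.8 in the PDXd-titled libraries and 21.7, 22.8 and 21.4 in the TDXd-titled libraries. PBS 1 held far more POLE2 than the other PBS libraries did, and the treated libraries still lay below the lowest of these. Log2 fold changes in all treated tumors were -2.37 ± 0.34 for POLE2 (edgeR adjusted p = 2.0e-04) and -1.71 ± 0.15 for POLE (adjusted p = 1.1e-05). Without PBS 1, the POLE2 value in all treated tumors was -1.67 (adjusted p = 4.5e-05). Without PDXd-titled 3, POLE2 had a log2 fold change of -2.14 and an adjusted p of 0.056 in PDXd-titled tumors and was no longer called.

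In polymerase delta, POLD1, the catalytic subunit, had the largest fall and was at 74.4, 64.9 and 49.1 CPM in the PBS libraries, 27.1, 29.8 and 28.5 in the PDXd-titled libraries and 26.8, 25.7 and 25.1 in the TDXd-titled libraries. POLD3, an accessory subunit, had the smallest and was at 75.6, 64.1 and 62.6 CPM in the PBS libraries, 43.5, 44.7 and 41.7 in the PDXd-titled libraries and 43.3, 43.8 and 41.8 in the TDXd-titled libraries. Neither gene's treated libraries reached the PBS range, and POLD3 was nearly level among the 6 treated libraries. POLD1 had a log2 fold change of -1.21 ± 0.11 (edgeR adjusted p = 1.6e-05), POLD2 one of -0.78 ± 0.08 (adjusted p = 2.3e-05) and POLD3 one of -0.64 ± 0.07 (adjusted p = 4.0e-05) in all treated tumors. The POLD3 to POLD1 log2 ratio rose from 0.12 ± 0.20 in PBS (SD, n = 3) to 0.67 ± 0.09 in treated tumors (SD, n = 6; exact permutation p = 0.024, adjusted p = 0.036).

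PCNA and 4 of the 5 subunits of its loader fell, and the fifth, RFC1, was not called. RFC3, a small subunit that every RFC-type loader shares, had the largest fall and was at 93.3, 51.9 and 49.9 CPM in the PBS libraries, 23.6, 20.7 and 19.8 in the PDXd-titled libraries and 19.1, 19.7 and 17.8 in the TDXd-titled libraries. RFC1, the large subunit found in the replicative loader alone, was at 70.2, 75.7 and 77.5 CPM in the PBS libraries, 66.8, 70.4 and 65.8 in the PDXd-titled libraries and 70.6, 70.5 and 61.9 in the TDXd-titled libraries. RFC3 in every treated library lay far below the lowest PBS library, while RFC1 overlapped between the groups. RFC3 had a log2 fold change of -1.69 ± 0.17 (edgeR adjusted p = 2.9e-05) and RFC1 one of -0.14 ± 0.07 with a 95% interval of -0.29 to 0.01 (adjusted p = 0.098) in all treated tumors. RFC5, RFC4, PCNA and RFC2 stood between at -1.40, -1.28, -1.07 and -0.73. RFC1 and RFC4 sit in the same loader, and their log2 ratio was 0.79 ± 0.30 in PBS (SD, n = 3) and 1.92 ± 0.11 in treated tumors (SD, n = 6; exact permutation p = 0.024, adjusted p = 0.036).

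DNA2, a nuclease and helicase that trims long flaps of Okazaki fragments and resects broken ends, had the largest fall of all 48 members in all treated tumors with all libraries. It was at 56.4, 30.2 and 29.1 CPM in the PBS libraries, 7.64, 5.82 and 4.84 in the PDXd-titled libraries and 6.46, 5.64 and 4.96 in the TDXd-titled libraries. LIG1, the ligase that seals the finished fragments, had the smallest fall of the 3 maturation genes and was at 36.1, 35.8 and 33.4 CPM in the PBS libraries, 17.8, 18.2 and 17.4 in the PDXd-titled libraries and 16.9, 18.1 and 19.2 in the TDXd-titled libraries. Treated libraries of both genes were well clear of PBS, but PBS 1 stood out for DNA2 and not for LIG1. DNA2 had a log2 fold change of -2.71 ± 0.21 in all treated tumors, a 6.54-fold fall (edgeR adjusted p = 5.9e-06), and LIG1 one of -0.97 ± 0.07 (adjusted p = 4.4e-06). FEN1, the nuclease for short flaps, fell with -1.37 ± 0.16 (adjusted p = 5.5e-05) and overlaps 2 other genes by the tables' coordinates.

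WDHD1, which ties polymerase alpha to the moving helicase, was at 91.6, 44.5 and 44.04 CPM in the PBS libraries, 22.2, 19.5 and 18.7 in the PDXd-titled libraries and 18.9, 18.9 and 18.8 in the TDXd-titled libraries. Its treated libraries were nearly level and all below PBS, with a log2 fold change of -1.62 ± 0.20 in all treated tumors (edgeR adjusted p = 8.0e-05). Of the chromatin assembly factor CAF-1, which places histones on new DNA at PCNA, CHAF1A was at 62.8, 49.4 and 38.7 CPM in the PBS libraries, 21.1, 24.2 and 19.9 in the PDXd-titled libraries and 19.1, 19.4 and 20.3 in the TDXd-titled libraries. CHAF1B, its partner, was at 33.5, 21.8 and 20.5 CPM in the PBS libraries, 11.2, 11.8 and 9.96 in the PDXd-titled libraries and 10.8, 12.6 and 9.38 in the TDXd-titled libraries. Both subunits fell, with log2 fold changes of -1.28 ± 0.13 and -1.20 ± 0.15 (edgeR adjusted p = 2.8e-05 and 1.1e-04) and no overlap between treated and PBS libraries. The CHAF1B to CHAF1A log2 ratio overlapped between the groups, at -1.001 ± 0.15 in PBS (SD, n = 3) and -0.92 ± 0.18 in treated tumors (SD, n = 6; exact permutation p = 0.55, adjusted p = 0.58).

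By role, every member was called lower in all treated tumors in 11 of 14 groups, and the exceptions were ORC with 3 of 6, the clamp and its loader with 5 of 6 and RPA with 0 of 3. Plotted side by side by role, the PDXd-titled and TDXd-titled changes lay close together for each gene.

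**Figure D3:**
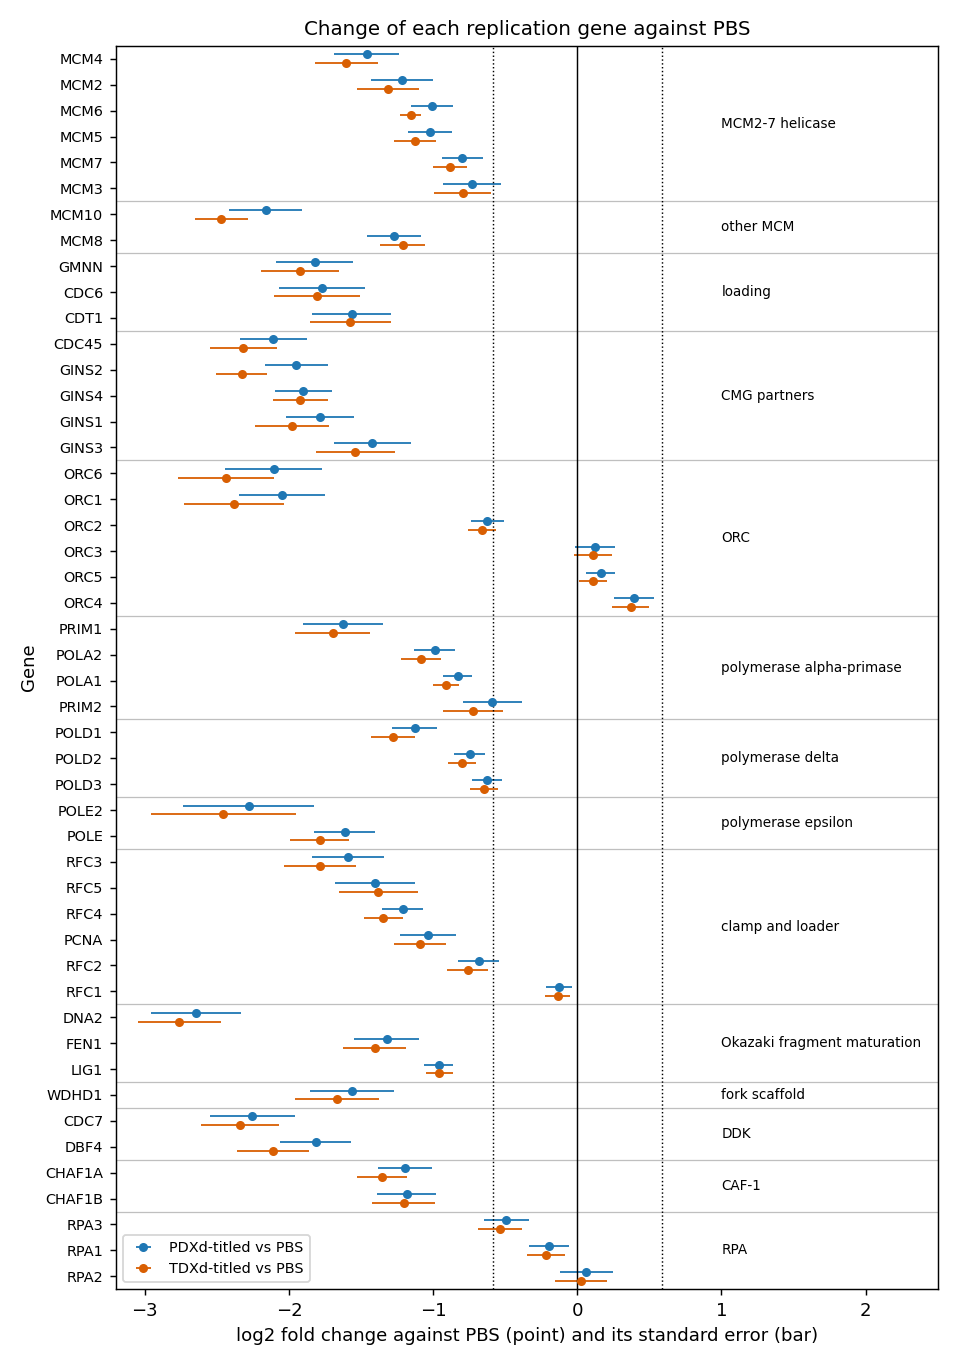
Log2 fold change against PBS (points) with standard error (bars) for the 48 genes, grouped by role, in PDXd-titled and TDXd-titled tumors; both share the 3 PBS libraries, and dotted lines mark a fold change of 1.5. DNA2 lies farthest left at -2.64 and -2.76, and ORC3, ORC5, RFC1, RPA1 and RPA2 lie within the dotted lines near 0.

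Of 18 ratios between partner genes tested within libraries, 12 differed between treated and PBS tumors at an adjusted p of 0.036, 7 lower and 5 higher in treated tumors. Each of these 12 had no overlap between the groups and an exact p of 0.024, the smallest that 6 against 3 libraries allow. Among single genes, all treated libraries lay below all PBS libraries for 25.5% of all genes and above them for 25%. Pairs of other genes were not tested, so no share over all pairs stands beside these 12. Several pairs share a gene. With any 1 library left out none of the 18 passed: 5 treated against 3 PBS libraries gave a smallest adjusted p of 0.054, and 6 against 2 allow no exact p below 0.071. Ratios that overlapped, and for which no difference was found, were MCM8 to MCM2, POLA1 to POLA2, POLE2 to POLE, CHAF1B to CHAF1A, DBF4 to CDC7 and LIG1 to FEN1. The plot of ratios by library shows both kinds.

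**Figure D4:**
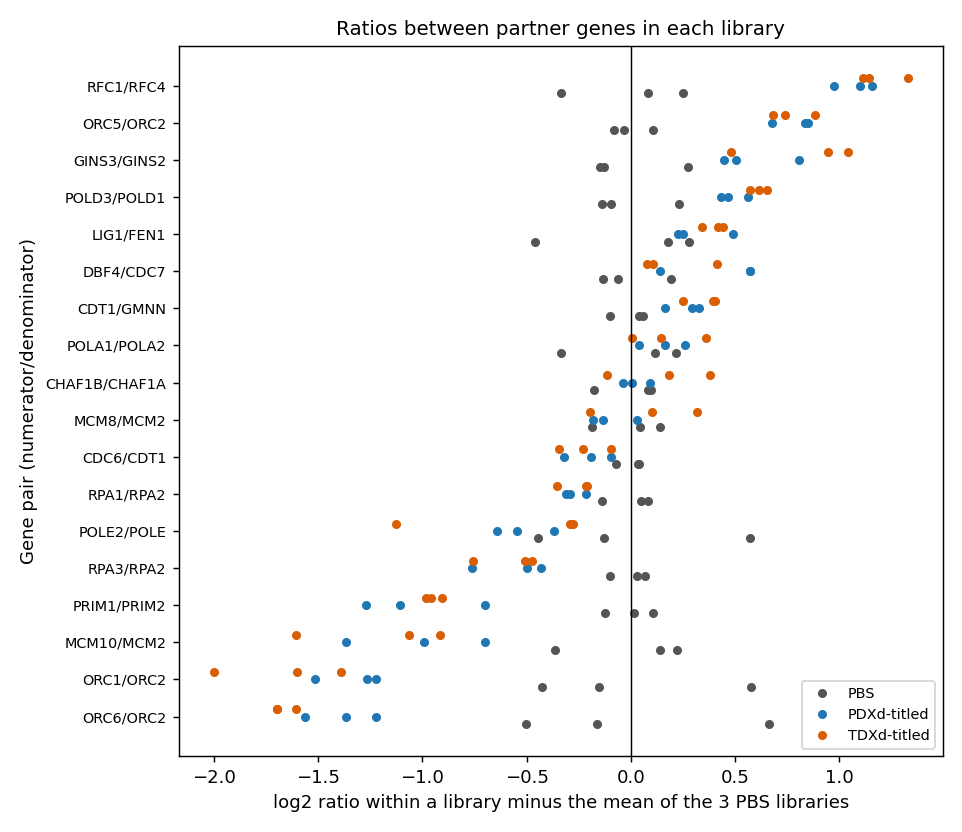
Log2 ratio of 18 pairs of partner genes within each library, minus the mean of the 3 PBS libraries; points are libraries colored by group. ORC1 and ORC6 against ORC2 lie at the low end and RFC1 against RFC4 at the high end, while the CHAF1B to CHAF1A and MCM8 to MCM2 points of all groups mix around 0.

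The PDXd-titled and TDXd-titled tumors were also compared directly, at the same labelled dose and schedule. None of the 48 members was called, where edgeR called 0.0273% of all genes (4 genes, all higher in PDXd-titled tumors). By DESeq2 it was also 0, and no member reached an unadjusted p under 0.05 in edgeR, where 3.69% of all genes did. The values were higher in PDXd-titled tumors for 44 of 48 members and for 51.9% of all genes, with a median log2 difference of 0.071. The 48 genes were measured in the same 6 libraries, so these 44 are not separate measurements of the groups. The median changed to between 0.030 and 0.14 when 1 library was left out. The sum of the proliferation markers was also higher in each PDXd-titled library (128 to 168 CPM) than in each TDXd-titled library (98.1 to 122 CPM). The part of proliferation in these differences was not tested.

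GINS2 had the largest difference and is described for that reason. It was at 39.6, 32.2 and 26.02 CPM in the PBS libraries, 8.40, 10.1 and 6.57 in the PDXd-titled libraries and 5.99, 6.404 and 7.07 in the TDXd-titled libraries, and the lowest PDXd-titled library lay among the TDXd-titled ones. The log2 difference was 0.37 ± 0.17 with a 95% interval of -0.0032 to 0.74 (edgeR unadjusted p = 0.052, adjusted p = 1). ORC1, ORC6 and MCM10 followed with 0.32, 0.32 and 0.30 and intervals of -0.16 to 0.80, -0.02 to 0.66 and -0.25 to 0.84. At the other end MCM8 had -0.07 with an interval of -0.36 to 0.21. All 48 intervals held 0, and 43 of them excluded a 1.5-fold difference in either direction, while those of MCM10, GINS2, ORC1, ORC6 and POLE2 did not. A p that misses the threshold does not show that the conjugates act alike on these genes.

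**Figure D5:**
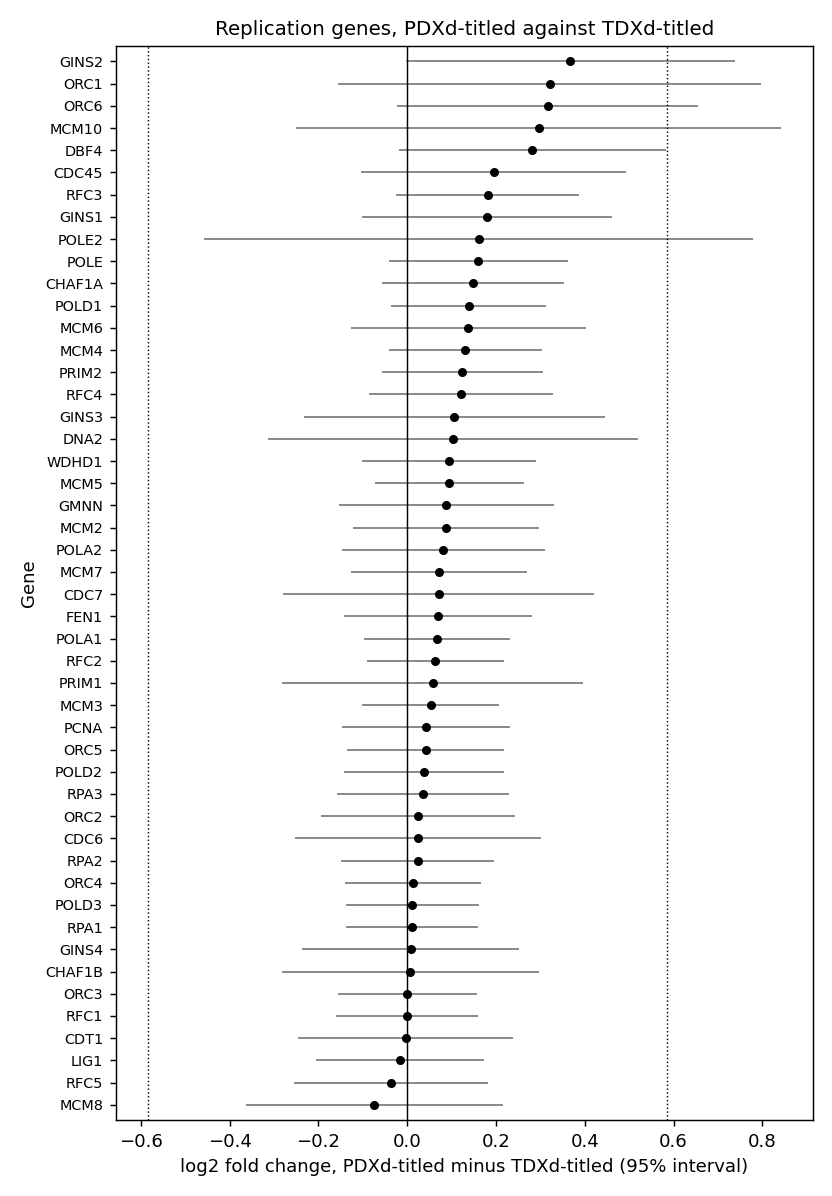
Log2 difference between PDXd-titled and TDXd-titled tumors (points) with 95% interval (lines) for the 48 genes, ordered by size; dotted lines mark 1.5-fold. Points run from -0.07 for MCM8 to 0.37 for GINS2 and every interval crosses 0.

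A second list of 40 replication genes outside the 48, also chosen by function, gave the surrounding pathway, and 39 were in the tables. Of these, 27 were called lower in all treated tumors, 24 in PDXd-titled and 27 in TDXd-titled tumors, against 17.1%, 13.8% and 15.5% of all genes. In 30 of 39 every treated library lay below every PBS library, as in 25.5% of all genes. None was called higher by edgeR or by DESeq2, where edgeR called 15.2%, 11.2% and 13.1% of all genes higher. At an unadjusted edgeR p under 0.05 there were 33, 31 and 31 genes in either direction, against 61.1%, 46.9% and 52.1% of all genes. The median log2 fold change of the second list was -0.99 in all treated tumors, against -1.28 for the 48 members.

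The 4 largest falls of this list were in helpers of the fork and its kinase. CLSPN, the mediator that carries the checkpoint signal at stalled forks, was at 55.996, 26.9 and 23.6 CPM in the PBS libraries, 6.46, 7.29 and 5.98 in the PDXd-titled libraries and 6.98, 6.97 and 5.18 in the TDXd-titled libraries. DBF4B, the second activator of CDC7, was at 41.4, 27.1 and 22.5 CPM in the PBS libraries, 6.52, 7.80 and 6.08 in the PDXd-titled libraries and 5.61, 5.99 and 3.29 in the TDXd-titled libraries. PCLAF, listed in the tables under its older symbol KIAA0101, binds PCNA and was at 57.2, 28.1 and 26.1 CPM in the PBS libraries, 8.67, 10.6 and 6.11 in the PDXd-titled libraries and 7.91, 8.10 and 6.21 in the TDXd-titled libraries. These 3 had treated libraries far below PBS, and ATAD5, the subunit of the RFC-type loader that takes PCNA off DNA, was at 18.3, 11.3 and 9.30 CPM in the PBS libraries, 2.75, 3.16 and 2.13 in the PDXd-titled libraries and 3.22, 2.58 and 2.91 in the TDXd-titled libraries. Their log2 fold changes in all treated tumors were -2.45 ± 0.23, -2.37 ± 0.24, -2.23 ± 0.24 and -2.21 ± 0.20 in that order (edgeR adjusted p = 1.7e-05, 2.5e-05, 4.2e-05 and 1.5e-05).

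Genes of the second list that were not called covered several roles. MCM9, the partner of MCM8, had a log2 fold change of -0.25 ± 0.12 in all treated tumors (edgeR adjusted p = 0.1), and LRWD1, which binds ORC to chromatin, had -0.19 ± 0.08 (adjusted p = 0.054). POLE3, a histone-fold subunit of polymerase epsilon, had -0.18 ± 0.06 (adjusted p = 0.034) and POLD4, the smallest polymerase delta subunit, 0.26 ± 0.14 (adjusted p = 0.14). ASF1A and CHTF8 had 0.40 ± 0.12 and 0.32 ± 0.08, under the fold change minimum (edgeR adjusted p = 0.015 and 0.0041). ASF1B, a relative of ASF1A in histone supply, and CHTF18, the partner of CHTF8 in clamp loading, fell with -1.94 ± 0.16 and -1.52 ± 0.21 (edgeR adjusted p = 7.6e-06 and 1.9e-04). These 8 genes were chosen for description after their values were seen.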

How the data were processed

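RNA-Seq was done on 9 PC3 xenografts, for which the authors used Cutadapt on the reads, STAR for alignment and featureCounts for counting. The deposited tables hold the authors' raw counts per gene, without normalization, for 16098 and 16114 genes, all protein coding, with the same PBS counts in both. The labels name GRCh38.p13, but 0 of the 48 members have the coordinates that GENCODE v44 gives on GRCh38. The listed spans of MCM2 and MCM6 lie wholly apart from their promoter windows on GRCh38.p14. For these genes the listed coordinates are therefore not those of GRCh38, and the build on which reads were counted is not certain. Whether reads were assigned by strand is not given in the sources used here.

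Libraries were grouped by title. Each comparison was fitted alone in edgeR 4.0.16 (R 4.3.3) with TMM factors, filterByExpr and the quasi-likelihood test, with Benjamini-Hochberg adjustment over all genes tested, and calls needed an adjusted p of 0.05 or less with a change of 1.5-fold or more. SE and 95% intervals come from the same fit. DESeq2 1.42.0, other scalings, filters, thresholds and left-out libraries were alternatives. Scripts were tested on simulated data. CPM values use TMM-adjusted library sizes, and log2 ratios within a library use log2 CPM with a prior count of 2 and a two-sided exact permutation test over the 84 divisions of 9 libraries into 6 and 3 (SciPy 1.17.1). Libraries held 54481702 to 125538606 counts, and no replicates were duplicates.

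Members, lists and gene pairs were chosen with earlier results of these data known. Per-library values are given, in each role, for the members with the largest and the smallest fall in all treated tumors, and for the 4 called genes of the second list with the largest fall. Promoter windows come from RefSeq (GRCh38.p14) and transcript lengths from GENCODE v44. A further marker gene is not reported here.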

Additional observations from a re-analysis of the deposited data

How the results depend on the processing

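For 115 results, 1602 values were recomputed under alternatives. Of these, 1483 were counted as the same, 96 lost and 9 gained a call, and 14 changed sign. The 1483 include ratios without 1 PBS library that passed with all libraries. These could no longer pass, since 6 against 2 libraries allow no exact permutation p below 0.071. Shares of all genes called under the alternatives are not given here. Members called lower ranged from 31 to 41 in PDXd-titled, 35 to 42 in TDXd-titled and 36 to 42 in all treated tumors with all libraries, with the lowest counts from a test against the 1.5-fold minimum itself. With 1 library left out their median log2 fold change ran from -1.38 to -1.01, -1.46 to -1.12 and -1.41 to -1.07. That same stricter test (glmTreat) called 14 genes of the second list lower in PDXd-titled and 16 in TDXd-titled tumors. With no fold change minimum, 1 member was higher in all treated tumors (ORC4), as was 1 gene of the second list in TDXd-titled (CHTF8) and 2 in all treated tumors (ASF1A and CHTF8). Leaving out 1 library gave 0 to 1 genes of that list higher in PDXd-titled tumors, the 1 being ASF1A without PBS 1. The RPA2 log2 fold change then ranged from -0.061 to 0.30 in PDXd-titled, -0.083 to 0.27 in TDXd-titled and -0.073 to 0.29 in all treated tumors. Ratios past the threshold numbered 0 without any 1 treated library, where 5 against 3 libraries allow fewer divisions. Differences of 3 ratios changed sign, from -0.10 to 0.060 for MCM8 to MCM2, -0.0037 to 0.27 for POLA1 to POLA2 and -0.0026 to 0.13 for CHAF1B to CHAF1A. The first digit of the code in the titles, used as a block, gave 40, 39 and 41 members lower and ended the calls of MCM3 and PRIM2 in TDXd-titled tumors (adjusted p = 0.051 and 0.081). Groups share parts of that code, but the sources do not say whether it pairs animals.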
